A study of Mus musculus with 8 samples.

Results

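The genes described here build fatty acids and turn them into phosphatidylcholine, the main lipid of lung surfactant. They are 36 mouse genes, chosen by name and taken through the platform's probe-to-gene table, out of 20842 named genes on the array. All 36 were found, through 57 array features. Each gene stands for a role, from the transcription factor Srebf1 through fatty acid synthesis, desaturation, elongation and acyl activation to the assembly, remodelling and hydrolysis of phospholipids. The RNA of 8 libraries came from whole lung of C57Bl/6J pups and was read on 1-colour Agilent arrays. All pups were kept at 20% oxygen between postnatal days 0 and 3. Of the 8 libraries, 4 are labelled wild-type (WT_normoxia) and 4 are labelled Fgf10 +/- (TG_normoxia). The latter label means heterozygous for a disruption of Fgf10, which encodes fibroblast growth factor 10. The labels give no sex, litter or pooling, and no details of the allele. The submitters call the samples of a group independent, without saying from how many litters they came. The p-values set each difference against the spread between samples within groups and take the samples as independent, which cannot be checked here.

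Surfactant is a film of lipid and protein that keeps the air sacs of the lung from collapsing, and alveolar type 2 (AT2) cells make, store and secrete it. Its lipid is largely phosphatidylcholine with saturated acyl chains. AT2 cells make fatty acids from acetyl-CoA or take them up, attach them to glycerol phosphate, add a choline head group, and then exchange acyl chains on the finished lipid. FGF10 is a signal from lung mesenchyme to the epithelium, and the comparison asks how lungs of pups labelled heterozygous differ from wild-type lungs in normal air.

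Values are log2 signals, on which a difference of 1 is a doubling. The array spanned 1.51 to 15.99 with a median of 3.47. Arrays correlated between 0.977 and 0.986 over all named genes. Lung markers were bright in every library, with a mean of 14.25 for the surfactant protein gene Sftpb in the wild-type libraries. The Fgf10 signal had no lower mean in the heterozygous group: it read 7.55, 7.96, 7.96 and 8.33 in replicates 1 to 4, against 7.49, 7.81, 6.89 and 7.64 in wild-type replicates 1 to 4 (limma difference 0.49, adjusted p = 0.507). The labels do not say where its features lie relative to the disruption, so this may check nothing, and every direction rests on the labels. Skeletal muscle, cartilage and fat markers stood high in wild-type replicate 4.

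Most of the 36 genes had a lower mean in the libraries labelled Fgf10 +/-, 29 of them against 7 with a higher mean. Each gene was read on its brightest feature. Among the 14 genes with over 1 feature, 8 had features that differed in sign. The median log2 difference of the 36 genes was -0.19, where the median over all 20842 genes was -0.00 and 50.2% of all genes had a lower mean. The lowest were Pla2g1b, a secreted phospholipase, at -1.13 and Lpcat1, the acyltransferase that gives surfactant phosphatidylcholine its saturated chains, at -0.86. The highest with a signal well off the floor was Elovl6, which lengthens palmitate, at 0.38. No gene passed an adjusted p of 0.05 in limma, among the 36 or among all 20842 (0% of genes). At an unadjusted p under 0.05, 10 of the 36 were lower and 1 was higher, where 6.29% of all genes were lower and 4.74% higher. The groups did not overlap for 9 lower genes and 1 higher gene, where 4.4% and 2.99% of all genes were so parted. Of the libraries labelled Fgf10 +/-, leaving out replicate 4 gave 4 lower genes in place of 10 and leaving out replicate 2 gave 6. Leaving out wild-type replicate 1 gave 5. In whole lung RNA, fewer cells of a type and less RNA per cell cannot be told apart.

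**Figure D1:**
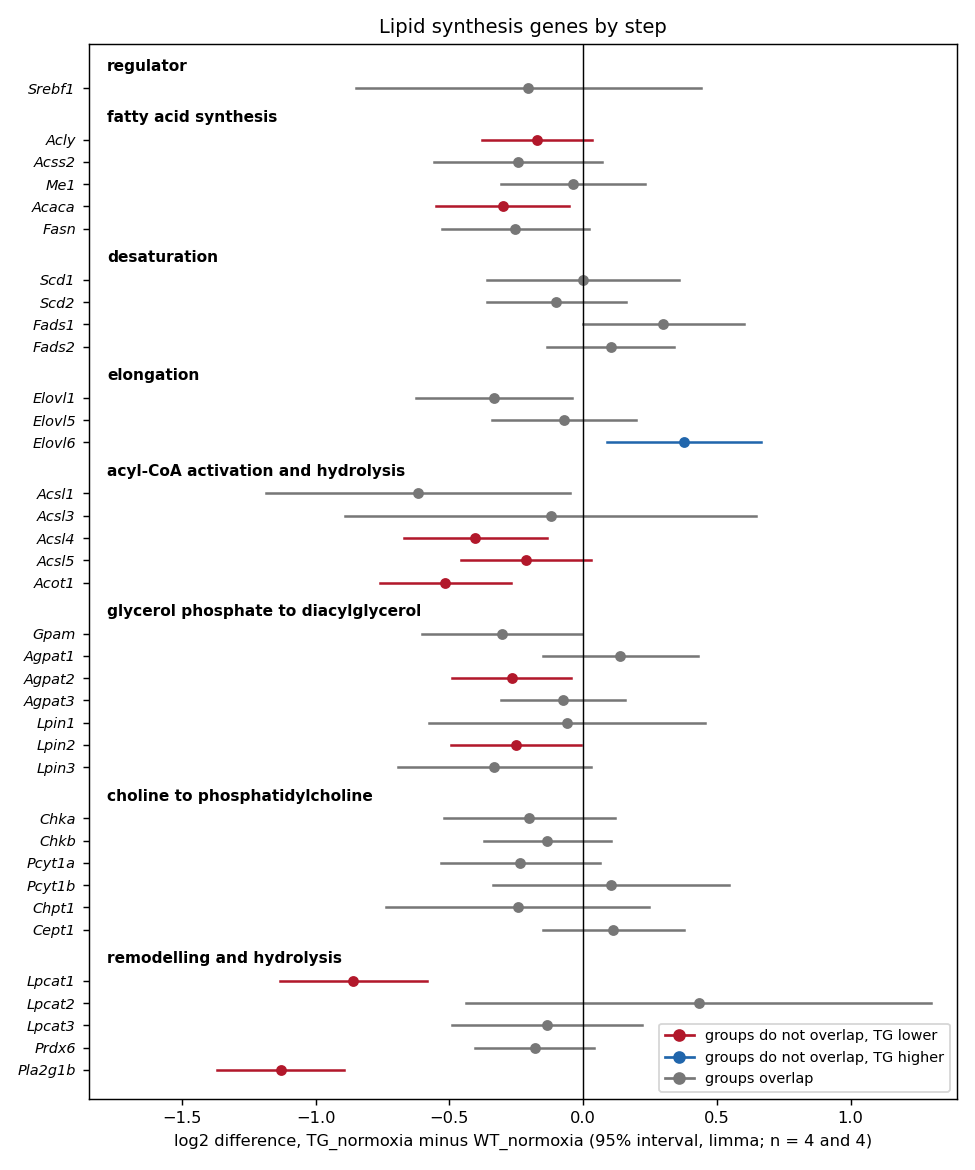
Log2 difference in signal (horizontal axis, libraries labelled Fgf10 +/- minus wild type, 4 libraries each) for the 36 genes, listed by step, with limma's 95% intervals as lines. Pla2g1b and Lpcat1 lie farthest to the left at -1.13 and -0.86, Elovl6 (blue) lies to the right at 0.38, and the 9 genes in red are those with 4 values that all lie below the 4 wild-type values.

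Averaged over the 36 genes, the libraries labelled Fgf10 +/- had a mean log2 signal between 8.27 and 8.37 and the wild-type libraries between 8.48 and 8.52, so the groups were parted. The median difference kept its sign when any single library was left out, and lay between -0.22 and -0.16. It was -0.19 without wild-type replicate 4. Of the 30 genes at or above the median signal of all genes, 25 were lower on average, their median was -0.21, and 50.3% of all genes in that range had a lower mean. Without the 5 genes of the remodelling step, which hold Pla2g1b and Lpcat1, 25 of the remaining 31 had a lower mean and the median was -0.20.

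Markers of AT2 cells moved with this pattern. All 17 listed AT2 markers had a lower mean, though Sftpc by only -0.00 and Lyz1 by -0.09. The median of the 17 was -0.67. The groups were parted for 13 of them, all lower, where 4.4% of all genes were parted as lower. None of the 17 passed an adjusted p of 0.05 in limma. Their mean log2 level was 11.74 to 11.99 in the wild-type libraries and 11.22 to 11.45 in those labelled Fgf10 +/-. None of these markers was at the floor, and Sftpc sat at the top of the scale in every library. The list includes Abca3, the lipid transporter of lamellar bodies, at -0.73, and Napsa, which processes surfactant protein B, at -0.93. Of the 36 lipid genes, Pla2g1b and Lpcat1 lay below that median of -0.67 and the other 34 above it. How much of the lipid gene differences goes with the AT2 markers was not tested.

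**Figure D2:**
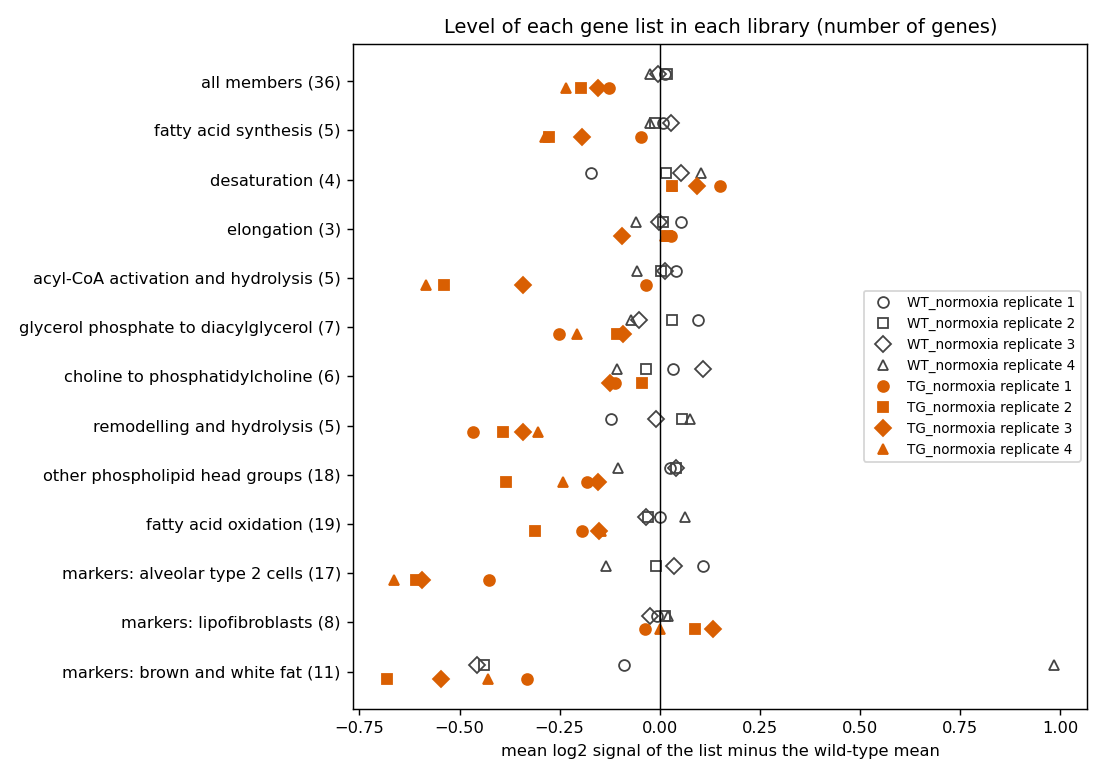
Mean log2 signal of each gene list in each library, minus the wild-type mean of that list (horizontal axis), with open symbols for wild type, filled symbols for libraries labelled Fgf10 +/- and the number of genes in brackets. The groups are parted for all 36 genes (8.27 to 8.37 against 8.48 to 8.52 before subtraction) and for the AT2 markers, they overlap for desaturation, elongation, acyl-CoA activation and the choline branch, and wild-type replicate 4 stands alone in the fat markers.

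The transcription factor Srebf1 switches on genes of fatty acid synthesis. It was dim on this array, and its signals spread widely. Wild-type replicates 1 to 4 read 5.25, 5.09, 3.99 and 4.83, and the libraries labelled Fgf10 +/- read 4.68, 4.53, 4.88 and 4.25. The lowest value of all belonged to wild-type replicate 3, so the groups overlapped. The difference of -0.20 had a 95% interval from -0.85 to 0.44.

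The fatty acid synthesis step holds 5 genes, for the synthesis itself and its supply of acetyl-CoA and NADPH. All 5 were lower on average on their brightest features, Me1 by only -0.04, and their median difference was -0.24. Their mean level was 9.09 to 9.14 in the wild-type libraries and 8.83 to 9.07 in those labelled Fgf10 +/-. Acaca encodes acetyl-CoA carboxylase, the committed step. It read 9.71, 9.78, 9.65 and 9.73 in wild-type replicates 1 to 4 and 9.54, 9.41, 9.51 and 9.22 in the libraries labelled Fgf10 +/-. Every one of the latter lay below every wild-type value, and the difference was -0.30 (limma SE 0.11, adjusted p = 0.354). A second bright Acaca feature gave -0.33, again without overlap, while 2 features near the floor gave -0.09 and -0.19. Acly, ATP-citrate lyase, makes cytosolic acetyl-CoA from citrate. Its wild-type values of 11.14, 11.17, 11.19 and 11.22 were the most tightly grouped of the 36 genes (SD 0.03), and the other group read 10.99, 11.08, 10.95 and 11.01. The groups were parted by a small difference of -0.17 (limma adjusted p = 0.534), while a dim Acly feature gave 0.17 with overlap. Fasn, the fatty acid synthase itself, differed by -0.25 and overlapped through replicate 1 of the libraries labelled Fgf10 +/-, at 6.73 against a lowest wild-type value of 6.71. Acss2, which activates acetate, differed by -0.24. Me1, malic enzyme, which supplies NADPH, differed by -0.04 on its brightest feature and by -0.06 on the next. The other Me1 feature, well off the floor at means of 8.03 and 8.37, was parted the other way, at 0.34 (limma unadjusted p = 0.0219), so no direction can be given for Me1.

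Desaturases, which put double bonds into acyl chains, were not lower as a step, with 2 lower means and 2 higher. Scd1, the stearoyl-CoA desaturase, had a difference of -0.00 with an interval from -0.36 to 0.36. Scd2, its close homologue, differed by -0.10 with an interval from -0.36 to 0.16. A feature may also pick up transcripts of a close homologue, and the related Scd3 differed by 0.06, or by -0.05 without wild-type replicate 4. Fads1, the delta-5 desaturase of polyunsaturated fatty acids, had the smallest p of the step. It read 7.74, 7.97, 8.08 and 8.16 in wild-type replicates 1 to 4 and 8.42, 8.25, 8.37 and 8.10 in the libraries labelled Fgf10 +/-. Only replicate 4 of the latter lay within the wild-type range. The difference of 0.30 had an interval from -0.00 to 0.60 (limma adjusted p = 0.455). Fads2, the delta-6 desaturase, differed by 0.10, and by -0.20 when its bright and its dim feature were averaged.

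Among the elongases, which add carbons to acyl chains, Elovl6 and Elovl1 lay on opposite sides. Elovl6 extends palmitate to stearate. It read 6.80, 6.66, 6.44 and 6.64 in wild-type replicates 1 to 4 and 7.02, 7.21, 6.85 and 6.95 in the libraries labelled Fgf10 +/-. All 4 of the latter were above all wild-type values, the only gene of the 36 with that pattern, and the signal ratio was 1.30 (difference 0.38, limma SE 0.12, adjusted p = 0.314). Leaving out any single library kept the Elovl6 difference between 0.31 and 0.43. Elovl1, which makes very long saturated chains, read 13.34, 13.33, 13.41 and 13.28 in the wild-type libraries. The libraries labelled Fgf10 +/- read 13.31, 12.90, 12.84 and 12.97, so replicate 1 sat among the wild-type values and the other 3 lay below them. The difference was -0.33 (SE 0.13, adjusted p = 0.391), or -0.44 without that replicate 1. A second Elovl1 feature gave -0.27 with no overlap. Elovl5, which extends polyunsaturated chains, differed by -0.07.

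Acyl-CoA synthetases attach coenzyme A to a fatty acid before it can enter a lipid, and thioesterases remove it. In this step 5 of 5 genes were lower on average, and the median difference was -0.40. The mean level was 9.05 to 9.15 in wild type and 8.53 to 9.08 in the libraries labelled Fgf10 +/-, which overlapped through replicate 1 of the latter. Acot1, a cytosolic acyl-CoA thioesterase, read 11.53, 11.56, 11.29 and 11.38 in wild-type replicates 1 to 4 and 10.92, 10.93, 11.02 and 10.83 in the libraries labelled Fgf10 +/-. Its groups were clearly parted, and the difference was -0.51 (limma SE 0.11, interval -0.76 to -0.27, adjusted p = 0.166). The single Acot1 feature may also read its near-identical neighbour Acot2, which differed by -0.32 on a feature of its own. Acsl4, which prefers arachidonic acid, read 10.37, 10.23, 10.35 and 10.12 in the wild-type libraries and 10.07, 9.76, 9.78 and 9.85 in the others. The highest of the latter, replicate 1, was just below wild-type replicate 4, and the difference was -0.40 (SE 0.12, adjusted p = 0.261). Acsl5, a synthetase of the endoplasmic reticulum and mitochondria, read 9.24, 9.36, 9.27 and 9.53 against 9.14, 9.10, 9.23 and 9.08. These groups touched but did not overlap, with a difference of -0.21, or -0.15 without wild-type replicate 4.

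Acsl1, the main synthetase of fat-burning and fat-storing cells, had the largest mean difference of the synthetases and also a wide spread. It read 9.93, 9.51, 9.82 and 9.40 in wild-type replicates 1 to 4 and 9.45, 8.91, 9.40 and 8.43 in the libraries labelled Fgf10 +/-. The groups overlapped through wild-type replicate 4 and replicate 1 of the other group, and the difference was -0.62 (limma SE 0.25, interval -1.19 to -0.05, adjusted p = 0.413). A dimmer Acsl1 feature gave 0.08, and the mean of both gave -0.27. Acsl3, a synthetase of lipid droplets, was dim. Its difference of -0.12 was drawn towards 0 by replicate 1 of the libraries labelled Fgf10 +/-. That replicate 1 read 5.80 when the other 3 read 4.16 to 4.43. Without that library the Acsl3 difference was -0.49.

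**Figure D3:**
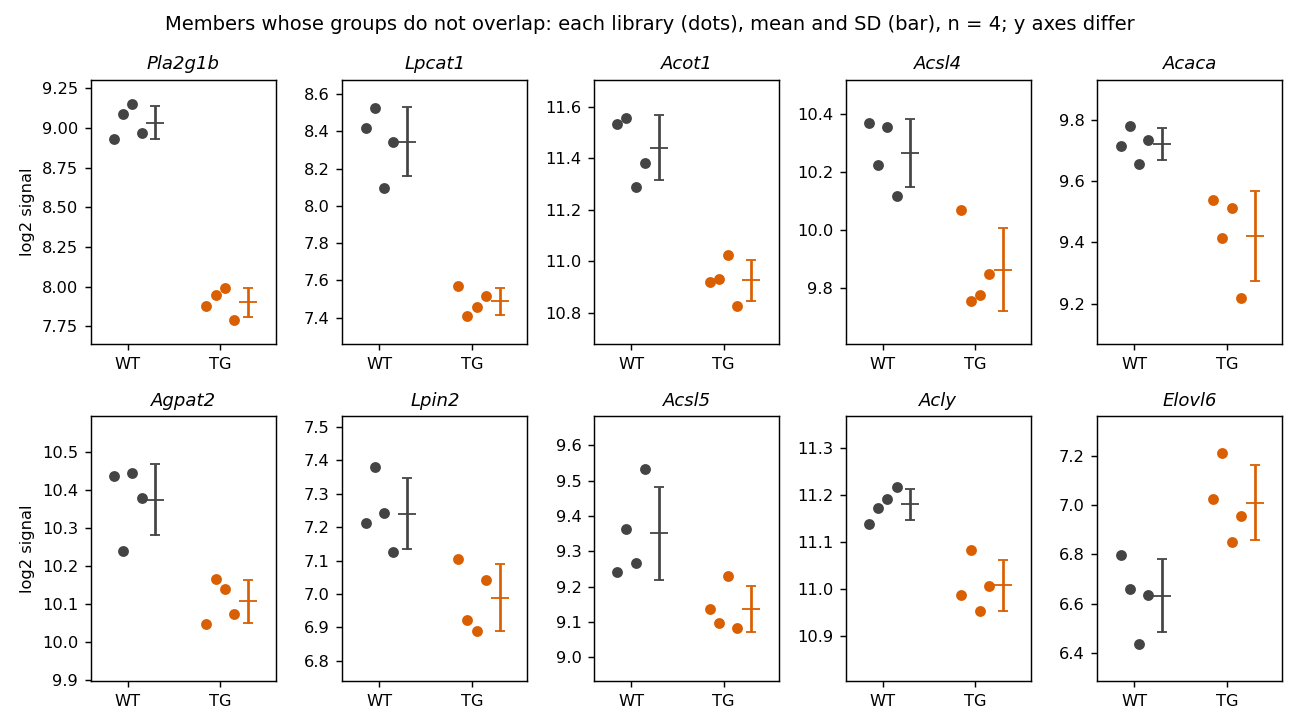
Log2 signal (vertical axis, scaled for each gene) in each of the 4 wild-type libraries (WT, grey) and the 4 libraries labelled Fgf10 +/- (TG, orange), with the mean and SD, for the 10 genes whose groups do not overlap. The gap is widest for Pla2g1b, from 7.99 to 8.93, and narrow for Acsl5, from 9.23 to 9.24, while Elovl6 is the gene with higher values in the libraries labelled Fgf10 +/-.

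The step from glycerol phosphate to diacylglycerol adds 2 acyl chains and then removes the phosphate. Of its 7 genes, 6 were lower on average, the median difference was -0.25, and the mean level was 7.65 to 7.82 in the wild-type libraries and 7.47 to 7.63 in those labelled Fgf10 +/-. Gpam, the mitochondrial acyltransferase that adds the first chain, read 5.61, 5.46, 5.18 and 5.22 against 4.95, 5.20, 5.07 and 5.03. Only replicate 2 of the second group, at 5.20, exceeded a wild-type value, and the difference was -0.30 (limma SE 0.13, adjusted p = 0.446). A dim Gpam feature, with means of 3.42 in wild type and 3.54 in the other group, gave 0.12. Agpat2, which adds the second chain, read 10.44, 10.24, 10.44 and 10.38 against 10.05, 10.17, 10.14 and 10.07. The groups did not overlap, the difference was -0.27 (SE 0.10, adjusted p = 0.358), and a dimmer feature gave -0.33. Its homologues differed by 0.14 (Agpat1) and -0.07 (Agpat3), with intervals that both included 0.

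Lipins remove the phosphate to give diacylglycerol. Lpin2 read 7.21, 7.38, 7.24 and 7.13 in wild-type replicates 1 to 4 and 7.10, 6.92, 6.89 and 7.04 in the libraries labelled Fgf10 +/-. All 4 of the latter were lower than every wild-type value, by a small margin at the nearest pair, and the difference was -0.25 (limma SE 0.11, adjusted p = 0.441). Lpin3 differed by -0.33 with overlap through replicates 3 and 4, at 6.00 and 5.84 against a lowest wild-type value of 5.84. Lpin1, the lipin of fat and muscle, differed by -0.06, and its sign was positive without wild-type replicate 2 (0.11), without replicate 1 of the other group (0.03) and when its bright and floor features were averaged (0.20).

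The choline branch, which gives phosphatidylcholine its head group, held no gene whose brightest feature was parted or reached an unadjusted p under 0.05. Other features of Chka and a dimmer one of Chpt1 did reach that p. Of these Chka features, 2 were nearly as bright as the brightest, with wild-type means of 7.28 and 7.20 against 7.34. The 6 genes of the branch had a median of -0.17, with 4 lower and 2 higher means. Their mean levels were 7.89 to 8.11 in wild type and 7.87 to 7.95 in the libraries labelled Fgf10 +/-. Pcyt1a encodes the rate-limiting enzyme of the branch, which makes CDP-choline, and had its smallest p. It read 10.28, 10.09, 9.99 and 10.03 in wild-type replicates 1 to 4 and 10.14, 9.77, 9.76 and 9.79 in the libraries labelled Fgf10 +/-. Replicates 2 to 4 of the latter lay below all wild-type values, but replicate 1 was the second highest of all 8, and the difference was -0.24 (limma SE 0.13, interval -0.53 to 0.06). Without that library it was -0.33. Pcyt1b, the second isoform, was at the floor in every library, between 2.06 and 2.85.

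Choline kinases phosphorylate choline at the start of the branch. Chka differed by -0.20 on the brightest of its 4 features, and the other 3 gave -0.31, -0.43 and -0.44, the last without overlap between the groups. In a limma fit of single features, their unadjusted p-values were 0.0429, 0.0407 and 0.0138, and none passed after adjustment. Chkb, the second choline kinase, differed by -0.13. Chpt1 and Cept1 carry out the last reaction, joining the head group to diacylglycerol. Cept1 differed by 0.11. The 2 Chpt1 features went opposite ways, -0.24 for the brighter and 0.76 for the dimmer, whose values did not overlap (limma unadjusted p = 0.0107), so no direction can be given for Chpt1.

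**Figure D4:**
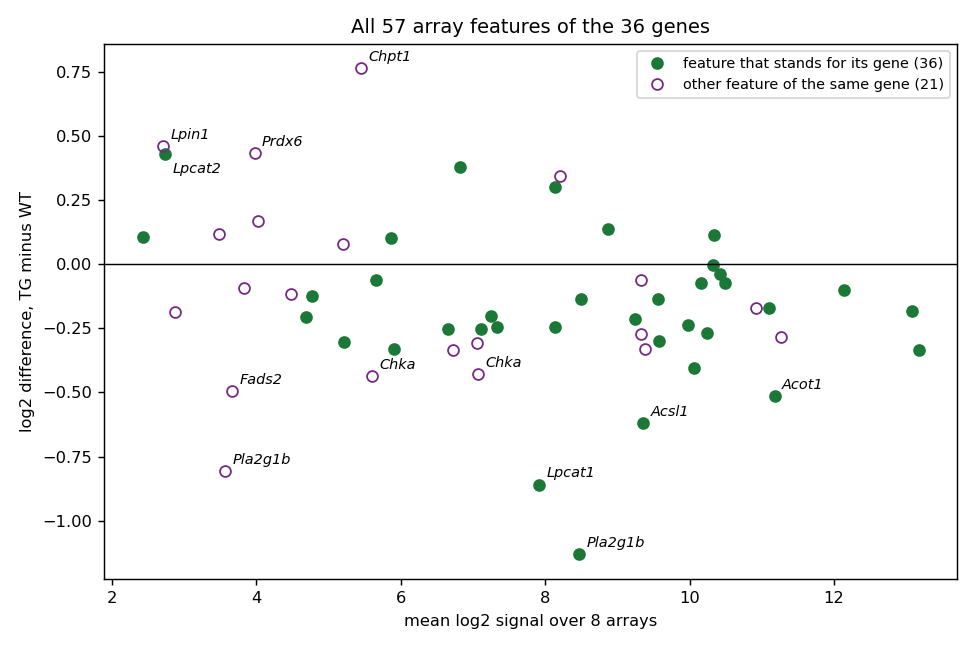
Log2 difference (vertical axis, libraries labelled Fgf10 +/- minus wild type) of all 57 array features of the 36 genes against their mean log2 signal over 8 arrays (horizontal axis), with filled points for the feature that stands for its gene and open points for the others. Bright features lie mostly below 0, and the 2 Chpt1 features lie on opposite sides of 0, at -0.24 and 0.76.

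The lowest values of the pathway lay in the remodelling and hydrolysis of finished phospholipid. Pla2g1b, the pancreatic-type secreted phospholipase A2, cuts the second acyl chain from a phospholipid. It read 8.93, 9.09, 9.15 and 8.97 in wild-type replicates 1 to 4 and 7.88, 7.95, 7.99 and 7.79 in the libraries labelled Fgf10 +/-. The gap between the groups, from 7.99 to 8.93, was many times the spread inside either (SD 0.11 and 0.09). The signal ratio was 0.456, the difference -1.13 (limma SE 0.10, interval -1.37 to -0.89), and its p was the smallest of all 20842 genes although the adjusted p was 0.0767. A second Pla2g1b feature near the floor gave -0.81 with overlap. Leaving out any single library kept the difference between -1.17 and -1.09.

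Lpcat1 adds palmitate to lysophosphatidylcholine and is the acyltransferase tied to saturated surfactant phosphatidylcholine in AT2 cells. It read 8.42, 8.53, 8.09 and 8.34 in wild-type replicates 1 to 4 and 7.57, 7.41, 7.46 and 7.51 in the libraries labelled Fgf10 +/-. The groups did not overlap, the signal ratio was 0.551, and the difference was -0.86 (limma SE 0.12, interval -1.14 to -0.58, adjusted p = 0.0767), the 22nd smallest p of all genes. Lpcat3, which adds polyunsaturated chains instead, differed by -0.14 with an interval from -0.49 to 0.22. Lpcat2, the form of inflammatory cells, was at the floor, between 1.73 and 3.62, so its difference of 0.43 is not a measured change. Prdx6, a peroxiredoxin with phospholipase activity in lamellar bodies, differed by -0.18. Its groups overlapped on the brightest of 4 features and were parted on the second brightest, at -0.28. Its other features gave -0.17 and, on a dim one, 0.43, both with overlap. The mean of all 4 Prdx6 features gave -0.05.

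With limma's variance trend and robust settings, 5 of the 36 genes passed an adjusted p of 0.05, all lower, where 1.28% of all genes passed as lower and 0.71% as higher. They were Pla2g1b (adjusted p = 1.83e-05, up to 0.293 over all settings), Lpcat1 (0.00130, up to 0.293), Acot1 (0.00137, up to 0.379), Acsl4 (0.0330, up to 0.506) and Elovl1 (0.0477, up to 0.589). When only genes at or above the median signal were tested, Pla2g1b, Lpcat1 and Acot1 passed. No gene of the choline branch and no desaturase passed in any setting.

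Replicate 1 of the libraries labelled Fgf10 +/- stood at one end of its group for many genes. It held the highest value of its group for 15 of the 36 genes, where replicates 2 to 4 held 8, 9 and 4, and the lowest for 10, where they held 8, 8 and 10. It was also the highest of its group in AT2 marker level, at 11.45. Without it, the groups were parted for 16 lower genes rather than 9, a count that leaving out a library can only raise or keep. The matching count over all genes was not taken, so the rise is not read as particular to these genes.

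Sequences before the start of the gene are shown for the 3 parted lower genes with the smallest p that held any motif searched, and for Elovl6, which lay on the other side. They are the 250 bases upstream of the RefSeq start in GRCm38.p6, in the direction of the gene, with every match in capitals. The motifs, searched on both strands, were TCACNCCAC (sterol element), CCAAT (NF-Y), GGGCGG (Sp1), CACGTG (E-box), TGTTTAC (forkhead), TTGCNNAA (C/EBP) and CAAGTG (NKX2-1).
Lpcat1, chr13:73466981-73467230, plus strand: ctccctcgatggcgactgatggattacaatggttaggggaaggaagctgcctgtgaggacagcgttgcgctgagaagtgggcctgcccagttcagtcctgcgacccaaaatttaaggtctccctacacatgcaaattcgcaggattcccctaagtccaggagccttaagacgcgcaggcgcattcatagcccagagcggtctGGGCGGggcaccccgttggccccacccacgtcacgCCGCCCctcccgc
Acot1, chr12:84009252-84009501, plus strand: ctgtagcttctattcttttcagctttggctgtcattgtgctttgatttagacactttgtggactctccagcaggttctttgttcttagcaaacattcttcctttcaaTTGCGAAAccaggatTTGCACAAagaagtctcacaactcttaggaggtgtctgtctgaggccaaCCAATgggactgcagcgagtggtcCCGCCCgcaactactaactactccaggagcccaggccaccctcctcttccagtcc
Acsl4, chrX:142390536-142390785, minus strand: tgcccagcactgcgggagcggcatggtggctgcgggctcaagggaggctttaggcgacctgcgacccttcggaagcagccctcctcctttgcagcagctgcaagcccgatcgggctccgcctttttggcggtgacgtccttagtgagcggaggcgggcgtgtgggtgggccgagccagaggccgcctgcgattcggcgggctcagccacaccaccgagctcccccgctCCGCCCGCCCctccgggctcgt
Elovl6, chr3:129532136-129532385, plus strand: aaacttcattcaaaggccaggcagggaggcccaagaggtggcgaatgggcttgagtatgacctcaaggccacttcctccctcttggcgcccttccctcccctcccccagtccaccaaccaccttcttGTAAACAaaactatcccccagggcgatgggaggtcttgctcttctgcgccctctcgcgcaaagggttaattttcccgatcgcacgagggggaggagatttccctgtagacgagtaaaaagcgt

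Lpcat1 held Sp1 letters 48 and 13 bases before its start, Acsl4 a pair of overlapping Sp1 matches at 22 and 18, and Elovl6 a forkhead match at 123. Acot1 held C/EBP matches at 143 and 128, an NF-Y match at 79 and an Sp1 match at 55. Pla2g1b held none of these letters in its window. Of the 36 genes, 32 were in the RefSeq table, 11 of them with several starts, any of which could hold the match. NF-Y letters stood before 19 of the 32 (59.4%), against 37.5% of all 27025 genes in the table and 40.1% of the 8268 array genes at or above the median signal. For Sp1 the shares were 71.9%, 35.4% and 64.5%. The sterol element, to which SREBP proteins bind, stood before Acsl1 and Pcyt1a (6.25%, against 1.22% and 1.26%). Shares for the E-box were 6.25%, 6.86% and 9.85%, for forkhead 6.25%, 3.54% and 2.87%, for C/EBP 12.5%, 10.8% and 9.13%, and for NKX2-1 9.38%, 13.2% and 11.5%. Among the 10 genes with parted groups, all of them in the table, NF-Y letters stood before 3, Sp1 letters before 6 and the sterol element before 0.

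Neighbouring parts of lipid metabolism were set beside these genes through 118 further genes in 7 lists. Of the 118, 79 (66.9%) were lower on average, where 50.2% of all genes had a lower mean, and the median difference was -0.11. The groups were parted for 14 lower and 2 higher genes (background 4.4% and 2.99%). None passed an adjusted p of 0.05 in limma. At an unadjusted p under 0.05, 14 genes were lower and 3 higher, where 6.29% of all genes were lower and 4.74% higher. Phosphatidylglycerol is the second surfactant phospholipid. A list of genes for its synthesis, for other head groups and for choline transport held 4 of the parted lower genes, among 18 with a median of -0.16. They were Cds1 (-0.80), which makes CDP-diacylglycerol, Pgs1 (-0.39), which commits it to phosphatidylglycerol, and the choline transporter-like genes Slc44a3 (-0.53) and Slc44a2 (-0.16). Fatty acid oxidation held another 4, with 17 of 19 means lower and a median of -0.17: Acadvl (-0.30), Acaa2 (-0.22), Acaa1a (-0.19) and Eci2 (-0.17).

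Glycerolipid assembly, the route that also leads to triglyceride, had the lowest median of the 7 lists, -0.21 over 15 genes, with 11 lower means. Its mean level was 7.33 to 7.54 in wild type and 7.04 to 7.32 in the other group. These levels were narrowly parted, although no single gene of the list was. The mean takes in the dim genes Gpat2, Mogat1, Mogat2 and Gpd1l. Gpd1l read 4.65 in wild-type replicate 4 and 1.93 in replicate 1 of the libraries labelled Fgf10 +/-. The gap was not tested without these dim genes, so it is not read as a change of the route. The lowest differences of the 15 genes were those of Gpd1 (-0.77, adjusted p = 0.289 in limma), which makes glycerol phosphate, and Dgat2 (-0.65), which makes triglyceride. Both were named after their values were seen.

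The other 4 lists had smaller medians. Of 12 lipogenic regulators, with a median of -0.13, the groups were parted for Mid1ip1 (-0.48), which helps acetyl-CoA carboxylase to polymerise, and Nr1h3 (0.26), the oxysterol receptor LXR alpha. Further synthesis, desaturation and elongation genes had a median of 0.07 over 19, with 12 higher means. Here the groups were parted for the dehydratases Hacd3 (-0.36) and Hacd4 (0.39) and the elongase Elovl7 (-0.32). Acyl activation and uptake had a median of -0.08 over 17, with Acss1 (-0.43), a mitochondrial acetyl-CoA synthetase, and Acot13 (-0.27), a thioesterase, parted. Further remodelling enzymes and phospholipases had a median of -0.01 over 18, with Pnpla2 (-0.42), the triglyceride lipase, parted.

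Other cell types whose RNA the lung samples could hold include fat, which expresses much of this pathway. The 11 fat markers had a mean level of 5.28 in wild-type replicate 4 and 3.84 to 4.20 in the other wild-type libraries, against 3.61 to 3.96 in those labelled Fgf10 +/-. The brown fat gene Ucp1 read 7.16 in wild-type replicate 4 and at most 3.00 elsewhere. Of the 11 fat markers, 8 had a lower mean, and their median difference was -0.76, or -0.05 without that library. Without wild-type replicate 4, some fat markers stayed lower, while Lep (0.50), Pck1 (0.51), Retn (0.18), Adipoq (0.38) and Ucp1 (0.21) had higher means. Cidec and Plin5, which coat lipid droplets, were parted at -1.60 and -0.76, and differed by -1.39 and -0.72 without it, and Cox7a1, a muscle and brown fat form of a cytochrome oxidase subunit, differed by -0.94 and then -0.85. The mean levels of the fat cell genes Adipoq and Lep lay below the array median in both groups. In wild-type replicate 4 alone, however, Adipoq read 4.47, Plin1 4.22, Cfd 6.15 and Cidea 7.35, all above that median. Lep, Retn and Pck1 read 2.66, 2.52 and 2.45 there, below it. Of the 29 lipid genes with a lower mean, 16 were further below 0 without wild-type replicate 4 and 13 were nearer to 0 or, for Scd1, above it. Skeletal muscle (12 markers, 8.21) and cartilage (10 markers, 7.38) stood out in the same library, with at most 4.83 and 3.63 elsewhere. The lipofibroblast, a lipid-storing fibroblast next to AT2 cells, had 8 markers, Fgf10 among them, with a median of 0.09 and overlapping levels of 10.13 to 10.18 in wild type and 10.12 to 10.29 in the other group, although Lpl (-0.30) and Cd36 (-0.40), which take up fatty acids, were parted. Median differences were -0.24 for 10 alveolar type 1 markers, -0.45 for 8 club cell, -0.59 for 8 ciliated cell and -0.81 for 10 cardiac muscle markers. They were -0.11 for 9 macrophage and -0.00 for 8 endothelial markers. Which part of the lipid gene differences goes with these other lists was not tested.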

How the data were processed

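The values analysed are log2 signals of 62976 array features in 8 libraries, as deposited. The authors quantile normalized them, as their equal distributions show, and used limma (no version given), per the submitters' processing notes. Per the labels' protocols, Cy3 was the only dye. No source used here gives the background correction. Of the features, 31465 had 1 gene symbol, updated through RefSeq accessions (GRCm38.p6; 29050 matched, 2933 changed), and 40 of these with a blank value were left out. The feature with the highest mean stood for its gene.

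Groups came from the titles. limma 3.58.1 in R 4.3.3 (lmFit, eBayes, two-sided, Benjamini-Hochberg over 20842 genes, threshold 0.05) was fitted with group as the only term and tested on simulated data. Intervals are limma's moderated 95%. Groups are called parted where the 4 values of one all lie on 1 side of the other. With 4 arrays a group, their number limits the precision. The genes, lists and alternatives were chosen with earlier results of these data known, so lists are described by counts and medians only. All 36 genes are accounted for. Library values are given for genes with parted groups or an unadjusted p under 0.05 and for the smallest p of each step; from neighbouring lists up to 4 parted genes are named, other genes being named after their values were seen. Features of 1 gene, scaling, filters on dim genes, variance model, array weights, replicate block, a sex covariate computed from Xist and Y-linked genes, and left-out libraries were varied. Figures were drawn with matplotlib 3.10.9.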

Additional observations from a re-analysis of the deposited data

Results flagged for a closer look

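In 4 of the 72 groups of 4 values (36 genes in each of the 2 groups), 1 library stood far from the other 3 by Dixon's gap test at its 95% level. Chance gives such a gap in about 1 in 20 groups. Acsl3 read 5.80 in replicate 1 of the libraries labelled Fgf10 +/- and 4.16 to 4.43 in the other 3. In the same replicate 1, Pcyt1a read 10.14 against 9.76 to 9.79. Prdx6 read 13.08 in replicate 3 of that group against 12.94 to 12.96. Chka read 7.12 in wild-type replicate 2, the lowest, against 7.41 to 7.44.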

How the results depend on the processing

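Of the 36 genes, 0 passed an adjusted p of 0.05 in limma, or when any single library was left out. The count was 1 with array weights, 2 with genes below the 25th percentile of signal left out, 3 below the 50th and 5 with a variance trend and robust settings. The 2 filters kept 34 and 30 of the 36 genes. Of all genes tested in these 4 settings, 3 of 20842, 38 of 15631, 288 of 10421 and 414 of 20842 passed. Over all genes 1 passed without wild-type replicate 4. Lower genes at an unadjusted p under 0.05 numbered 4 to 11 with single libraries left out, and 5 with a pair left out together (replicate 4 of wild type, replicate 3 of the other group). Higher ones numbered 1 or 2 with single libraries left out, 2 under either centring, either filter, the variance trend, array weights or a sex covariate, and 3 among single features. Parted lower genes numbered 9 to 16 with single libraries left out and 14 without that pair. Parted higher ones numbered 1 to 2, and 3 without that pair or among single features. The matching counts of parted genes over all genes were not taken in these settings. The median difference ranged from -0.22 to -0.16 with single libraries left out. It was -0.14 with all features of a gene averaged, -0.17 centred on the median, -0.22 with array weights and -0.22 without that pair. The causes were not tested.

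With the replicate number as a block, 5 genes were lower and 2 higher at an unadjusted p under 0.05. Not every library correlated best with its own number, so the numbers are not taken as pairs. Signs turned for genes with small differences. With all features averaged, Me1 was 0.082, Fads2 -0.20, Lpin1 0.20 and Chpt1 0.26. Scd1 was 0.022 centred on the median, 0.0047 on the 75th percentile and 0.079 with a sex covariate. With single libraries left out, Me1 ranged from -0.13 to 0.0091, Scd1 from -0.082 to 0.088, Elovl5 from -0.12 to 8.2e-05, Acsl3 from -0.49 to 0.058, Lpin1 from -0.21 to 0.11 and Pcyt1b from -0.00072 to 0.26. Signals near the floor or the top compress differences by an unknown amount.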
